A study of Homo sapiens with 11 samples.

Results

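The cell cycle genes examined here were 42 genes of DNA replication and mitosis, 18 of S phase and 24 of mitosis, taken from a list of names and followed across 11 arrays of A375 melanoma xenografts. A gene entered when a probe annotated to it was detected (detection p-value below 0.05 against the negative control beads) on at least 1 array. This held for 41 of the 42 genes, 17 of S phase and 24 of mitosis, among 14886 genes tested in all. The only probe of the S phase gene CCNE2 was not detected on any array. Under PLX4720, an inhibitor of the BRAF kinase, 2 mitosis genes passed the test, both lower, where 2.3% of all genes passed and 0.853% were lower. Cyclin A2 (CCNA2) fell 2.03-fold and the centrosome kinase NEK2 fell 2.08-fold against vehicle (n = 3 and 3 arrays), and CCNA2 passed in 13 and NEK2 in 9 of 23 alternative fits. No S phase gene passed it, and no cell cycle gene passed it under bevacizumab, an antibody against human VEGF, or under both drugs together (COMBO), where 0% and 0.175% of all genes passed.

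A375 is a human melanoma cell line that carries the BRAF V600E mutation. It was grown under the skin of the flank of 6-week-old female CD1 athymic mice, which lack T cells, until tumours reached 150 to 200 mm3 after about 20 days. The 4 arms were then treated for 12 days with vehicle (methylcellulose, 3 arrays), PLX4720 at 60 mg/kg by daily gavage (3 arrays), bevacizumab at 10 mg/kg injected into the peritoneum 3 times per week (3 arrays), or PLX4720 with bevacizumab at the same doses (COMBO, 2 arrays). Tumour RNA was hybridised to human bead arrays, while the stroma of these tumours was mouse.

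Cells copy their DNA once in S phase and divide it in mitosis, and most genes of either step are transcribed in waves. Genes of S phase are held down in resting cells and switched on late in G1, when cyclin D and cyclin E kinases release the E2F factors from the RB protein. Genes of mitosis rise later, in G2, under the NF-Y, MYBL2 and FOXM1 factors, many of them through a promoter element called the cell cycle genes homology region (CHR). In melanoma cells with mutant BRAF, ERK signalling is known to drive entry into this cycle.

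The promoters of the 2 classes differed in these elements. RefSeq promoters (build GRCh38.p14) were found for 35 of the 42 genes, 15 of S phase and 20 of mitosis, and the 250 bases before the first listed start site were searched on both strands. An E2F site, spelled TTTCCCGC, TTTGGCGC, TTTGCCGC or TTTCGCGC, was present before 9 of 15 S phase genes and 0 of 20 mitosis genes, against 2.79% of 27305 genes with a promoter in the table. The CHR, spelled TTTGAA, was present before 1 of 15 S phase genes (RRM1) and 9 of 20 mitosis genes, against 13.6%. The NF-Y box, spelled CCAAT, was present before 10 of 15 and 17 of 20, against 33.0%. Counting every listed start of a gene put an E2F site before 1 mitosis gene and a CHR before 10, with 3.40%, 16.1% and 37.0% of all genes holding the E2F site, the CHR and the NF-Y box. Motifs of different kinds overlapped once among the members, a CHR and an NF-Y box in MKI67. Matches of the same kind also overlapped, as for E2F sites in MCM6 (beginning 90 and 86 bases before the start) and NF-Y boxes in PTTG1 (51 and 48). A match is a spelling and not a measured site, and a promoter without a match only lacks these letters.

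The 120 bases before the start are printed for 10 promoters, with motif matches in capitals. The first 4 are S phase genes with an E2F site, the next 4 are mitosis genes with a CHR, and the last 2 are the called genes CCNA2 and NEK2, which held NF-Y boxes and no CHR in this spelling.
MCM6, chr2:135876444-135876563, minus strand: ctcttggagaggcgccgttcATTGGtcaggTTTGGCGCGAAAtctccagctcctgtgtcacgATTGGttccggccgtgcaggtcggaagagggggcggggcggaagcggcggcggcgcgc
PCNA, chr20:5126623-5126742, minus strand: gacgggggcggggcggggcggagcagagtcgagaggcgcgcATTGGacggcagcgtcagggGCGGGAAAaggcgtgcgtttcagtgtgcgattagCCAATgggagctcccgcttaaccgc
GINS2, chr16:85688955-85689074, minus strand: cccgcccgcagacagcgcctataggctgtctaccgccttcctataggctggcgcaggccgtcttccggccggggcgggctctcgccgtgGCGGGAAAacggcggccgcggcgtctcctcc
CDT1, chr16:88803669-88803788, plus strand: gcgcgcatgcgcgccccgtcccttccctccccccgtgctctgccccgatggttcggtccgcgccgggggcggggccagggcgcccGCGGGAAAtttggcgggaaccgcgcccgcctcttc
CCNB2, chr15:59105026-59105145, plus strand: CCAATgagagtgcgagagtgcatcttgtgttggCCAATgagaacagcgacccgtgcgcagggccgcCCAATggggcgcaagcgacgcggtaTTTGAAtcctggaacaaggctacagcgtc
CDC20, chr1:43358861-43358980, plus strand: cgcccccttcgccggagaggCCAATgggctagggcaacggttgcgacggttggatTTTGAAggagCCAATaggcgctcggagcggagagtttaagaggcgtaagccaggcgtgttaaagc
PLK1, chr16:23678769-23678888, plus strand: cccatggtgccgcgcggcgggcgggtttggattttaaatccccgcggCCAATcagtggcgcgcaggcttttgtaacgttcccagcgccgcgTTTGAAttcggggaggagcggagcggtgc
MKI67, chr10:128126424-128126543, minus strand: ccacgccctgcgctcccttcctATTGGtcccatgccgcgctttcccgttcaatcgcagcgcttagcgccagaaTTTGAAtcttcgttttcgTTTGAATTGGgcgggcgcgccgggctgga
CCNA2, chr4:121823884-121824003, minus strand: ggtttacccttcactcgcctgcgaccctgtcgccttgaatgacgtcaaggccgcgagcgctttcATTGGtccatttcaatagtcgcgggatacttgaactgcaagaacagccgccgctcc
NEK2, chr1:211675622-211675741, minus strand: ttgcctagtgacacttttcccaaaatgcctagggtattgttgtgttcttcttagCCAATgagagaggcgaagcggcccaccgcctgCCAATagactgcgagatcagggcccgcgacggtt

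**Figure D1:**
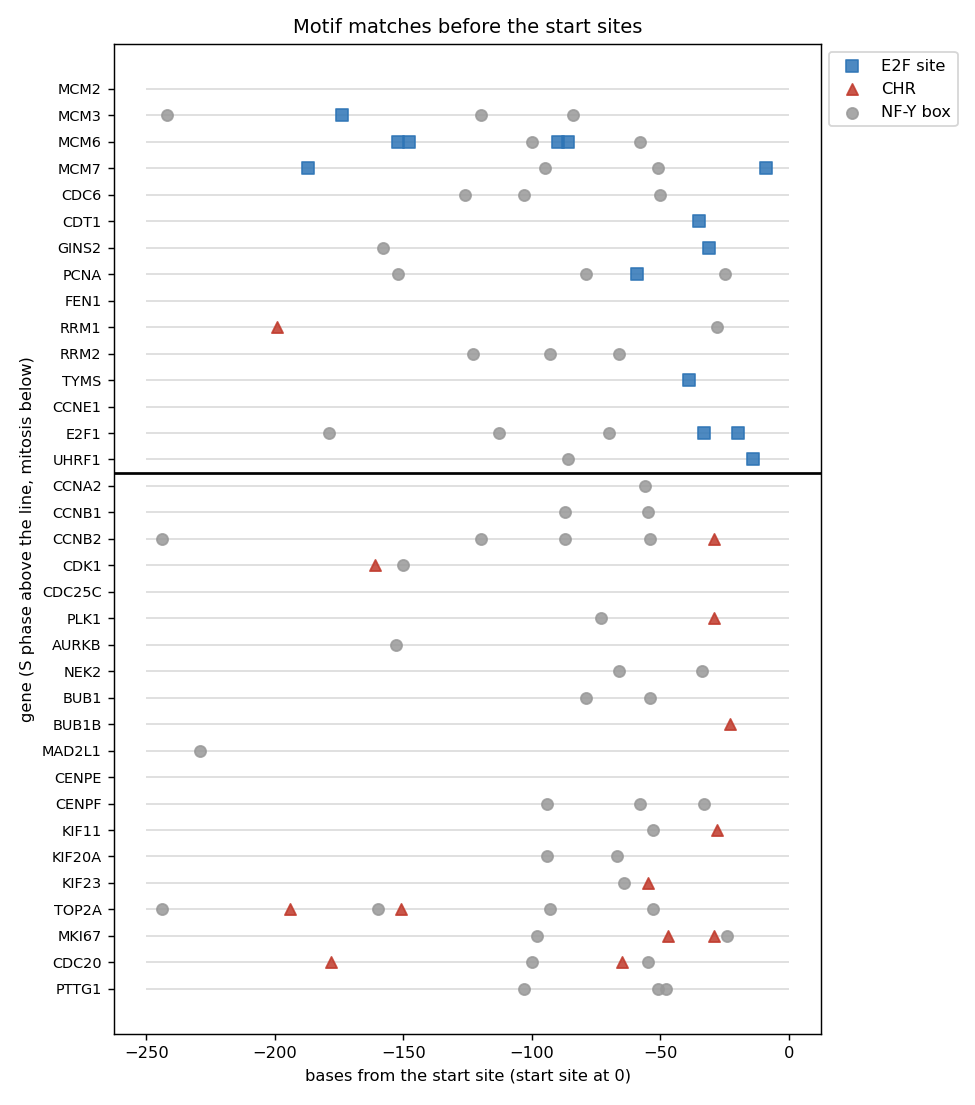
Motif matches before the start site (horizontal axis, bases, start site at 0) in the promoters of 35 cell cycle genes (vertical axis), with squares for E2F sites, triangles for the CHR and circles for the NF-Y box. Squares lie only above the line, before 9 S phase genes, and 9 of the 10 genes with triangles lie below it.

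In CCNB2, which encodes the mitotic cyclin B2, 4 NF-Y boxes began 244, 120, 87 and 54 bases before the start, the first of them outside the printed bases, and a CHR began at 29. The promoter of PLK1, the gene of polo-like kinase, held a CHR at the same distance of 29 bases. Of the 20 mitosis genes, the 9 with a CHR had a median log2 fold change of -0.15 under PLX4720 and the other 11 one of -0.48, which includes CCNA2 and NEK2. The 9 S phase genes with an E2F site had a median of -0.093 and the other S phase genes with a promoter one of 0.040. These medians were not tested.

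Between 41.8% and 46.4% of 47323 probes were detected per array, and 55 to 61 of the 61 cell cycle probes detected anywhere. Arrays of vehicle correlated with each other at 0.988 to 0.989 over all genes, those of COMBO at 0.987, those of bevacizumab at 0.957 to 0.988 and those of PLX4720 at 0.926 to 0.941. PLX4720 3 and bevacizumab 1 deviated alike. Their deviations from their arm means correlated at 0.63 over all genes, the highest of the 45 pairs of arrays from different arms. Of 10 melanocyte markers, the defining MLANA, TYR, TYRP1 and S100B were not detected on any array, no probe was named for DCT, and 5 were measured, SOX10 and PRAME among them. Of 12 fibroblast markers 11 were measured, and their summed signal was 6708 to 9867 in vehicle, 24748 to 43927 under PLX4720, 5016 to 7478 under bevacizumab and 13263 to 27743 under COMBO. Its part in the results was not tested. In whole tumours, fewer cells in cycle and less RNA per cell cannot be told apart.

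All signals below are background-corrected and normalised, on the log2 scale, in the order of replicates 1, 2 and 3. They compare arrays for 1 probe and do not rank genes by abundance. A gene was called at an adjusted p-value below 0.05 from limma over all 14886 genes. Against vehicle, 2.3% of all genes were called under PLX4720 in either direction and 0.853% were called lower. Of the 24 mitosis genes 2 were called, both lower, and of the 17 S phase genes 0 were called. At an unadjusted p below 0.05, 7 mitosis genes and 3 S phase genes were lower and none was higher, against 7% of all genes lower. The called genes were a cyclin and a kinase.

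CCNA2 encodes cyclin A2, which pairs with CDK2 in S phase and with CDK1 before mitosis. Its signals were 11.14, 11.22 and 11.47 in vehicle, 10.32, 10.17 and 10.26 under PLX4720, 11.05, 11.33 and 11.01 under bevacizumab and 11.13 and 10.98 under COMBO. All 3 PLX4720 arrays were below every other array and lay close together (SD 0.0739). The log2 fold change under PLX4720 was -1.02 ± 0.20 (SE, adjusted p = 0.0263 in limma). Its values were -0.14 ± 0.20 under bevacizumab and -0.22 ± 0.22 under COMBO, both with adjusted p-values of 1.00.

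NEK2 encodes a kinase that parts the centrosomes at the onset of mitosis. NEK2 signals were 10.01, 9.63 and 9.88 in vehicle, 9.01, 8.57 and 8.79 under PLX4720, 9.45, 9.89 and 9.91 under bevacizumab and 10.03 and 9.67 under COMBO. Again the 3 PLX4720 arrays were the lowest of all, and the COMBO arrays were at the level of vehicle. The change under PLX4720 was -1.05 ± 0.23 (SE, adjusted p = 0.0402 in limma), and under COMBO it was 0.0085 ± 0.25. In a fit of single probes, the second NEK2 probe gave -1.08 ± 0.31 under PLX4720 and was not called (adjusted p = 0.106 in limma). Under COMBO this probe gave -0.47 ± 0.35. Its COMBO signals of 8.33 and 8.22 lay below all vehicle arrays (8.63 to 8.92), unlike those of the brighter probe. The calls of CCNA2 and NEK2 were both near the threshold. Neither passed with median scaling (adjusted p = 0.139 for CCNA2 and 0.148 for NEK2 in limma), with only the arms compared (0.115 and 0.128), with array weights, with a replicate block, or without any 1 of the vehicle arrays, PLX4720 1 or either COMBO array, while the fold change stayed between -1.09 and -0.85 for CCNA2 and between -1.16 and -0.82 for NEK2 in all 23 alternative fits. NEK2 also missed it with the mean of its probes and without PLX4720 2, bevacizumab 2 or bevacizumab 3.

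Other genes of the entry to mitosis were measured next, namely the B cyclins, their kinase CDK1 and CDC25C, the phosphatase that activates it. CCNB2 signals were 11.88, 11.64 and 11.62 in vehicle, 11.05, 10.81 and 11.12 under PLX4720, 11.50, 11.88 and 12.14 under bevacizumab and 11.62 and 11.34 under COMBO. Each PLX4720 array was below each vehicle array, and the mean change of -0.72 ± 0.22 (SE, adjusted p = 0.143 in limma) did not pass the test. For CCNB1, the other mitotic B cyclin, the signals were 9.92, 9.61 and 9.71 in vehicle, 9.43, 9.52 and 9.25 under PLX4720, 9.62, 10.04 and 9.99 under bevacizumab and 9.90 and 9.37 under COMBO. The PLX4720 arrays were again all below the vehicle arrays, by less (-0.35 ± 0.22, adjusted p = 0.497 in limma), and COMBO 2 lay as low as they did. CDK1 signals were 10.93, 10.74 and 10.93 in vehicle, 10.69, 10.53 and 11.12 under PLX4720, 11.17, 11.29 and 11.18 under bevacizumab and 11.51 and 10.98 under COMBO. For this gene PLX4720 overlapped vehicle, while the bevacizumab and COMBO arrays were all above vehicle, and the change under PLX4720 was -0.087 ± 0.23. The share of all genes with bevacizumab or COMBO arrays all above vehicle was not counted. CDC25C had a log2 fold change of -0.88 ± 0.31 (adjusted p = 0.197 in limma), with PLX4720 1 and 2 at 7.47 and 7.61 and PLX4720 3, at 8.46, near the lowest vehicle array at 8.60. The other CDC25C probes gave smaller changes, -0.41 ± 0.24 and -0.47 ± 0.24.

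CDC20, UBE2C and PTTG1 act in the destruction step that starts anaphase. CDC20 activates the anaphase-promoting complex, UBE2C is its ubiquitin-conjugating enzyme, and PTTG1 encodes securin, a protein it destroys. CDC20 signals were 13.89, 13.93 and 13.99 in vehicle, 13.33, 12.82 and 13.43 under PLX4720, 13.87, 13.83 and 13.78 under bevacizumab and 14.004 and 13.54 under COMBO. All PLX4720 arrays were below all vehicle arrays, and 1 of the 2 COMBO arrays was as high as the highest vehicle array. UBE2C signals were 13.68, 13.82 and 13.92 in vehicle, 12.87, 12.85 and 13.57 under PLX4720, 13.88, 13.95 and 13.82 under bevacizumab and 13.69 and 13.67 under COMBO. PLX4720 1 and 2 stood about 1 log2 unit below vehicle, and PLX4720 3 only just below its lowest array. PTTG1 signals were 13.24, 13.12 and 13.11 in vehicle, 12.60, 12.42 and 13.001 under PLX4720, 13.48, 13.67 and 13.40 under bevacizumab and 13.23 and 12.84 under COMBO. Its PLX4720 arrays were below those of vehicle and its bevacizumab arrays above them. The changes under PLX4720 were -0.74 ± 0.22 for CDC20, -0.71 ± 0.23 for UBE2C and -0.48 ± 0.22 for PTTG1, with adjusted p-values of 0.127, 0.155 and 0.316. In the fit of single probes, a second, dimmer UBE2C probe gave -1.42 ± 0.33 and was not called (adjusted p = 0.0512 in limma).

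**Figure D2:**
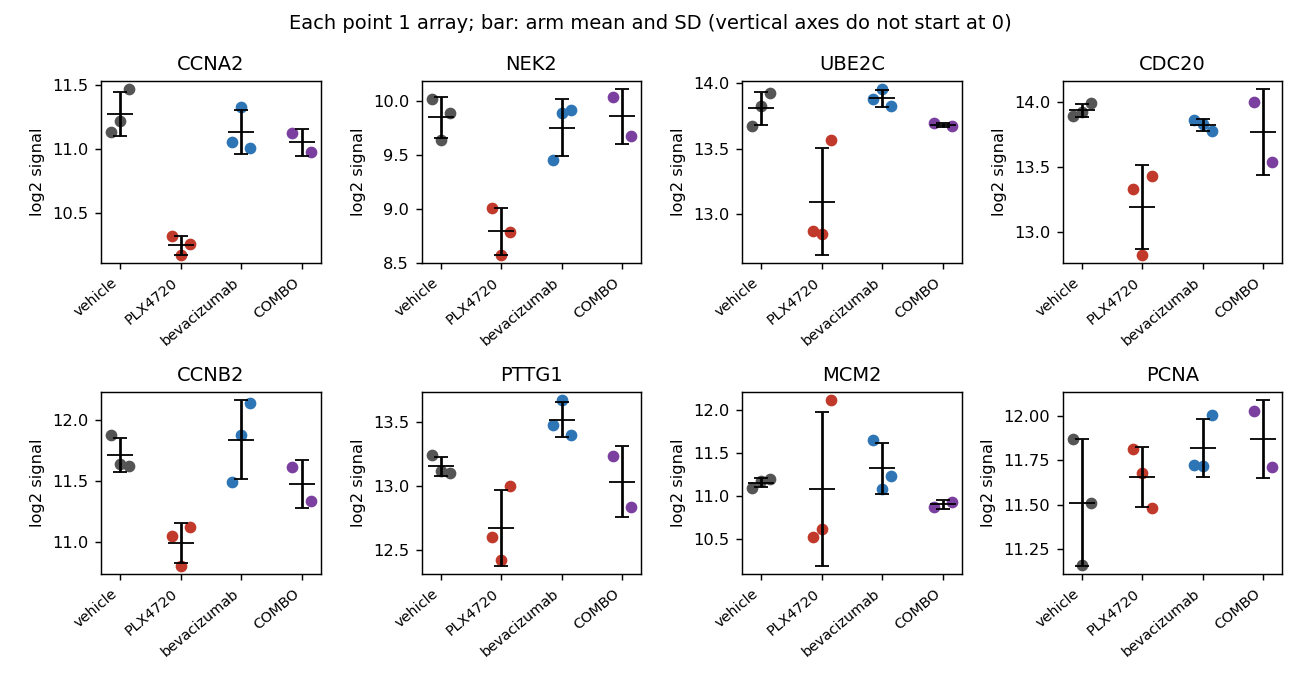
Log2 signal (vertical axis) of 8 genes on each array by arm, points for arrays and bars for the arm mean and SD; the vertical axes do not start at 0. PLX4720 arrays lie below all vehicle arrays in CCNA2, NEK2, UBE2C, CDC20, CCNB2 and PTTG1, while in MCM2 and PCNA they span or overlap them.

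Among the other mitotic kinases, the log2 fold change under PLX4720 was -0.67 ± 0.25 for AURKA, the kinase of the spindle poles, and -0.83 ± 0.42 for AURKB, the kinase of the centromere. AURKB was at 9.83 and 10.34 on PLX4720 1 and 2, and at 11.87 on PLX4720 3, above all 3 vehicle arrays (11.46 to 11.55). PLK1 and TTK, a kinase of the spindle checkpoint, had values of -0.26 ± 0.37 and -0.28 ± 0.24. In the checkpoint itself, which holds anaphase until chromosomes are attached, BUB1 had -0.46 ± 0.27, MAD2L1 -0.36 ± 0.24 and BUB1B 0.081 ± 0.26. None of these 7 genes passed the test.

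The 8 genes of kinetochores, kinesin motors and chromosome structure had a median log2 fold change of -0.088 under PLX4720, the nearest to 0 of the 5 mitotic groups. The cyclin group with CDK1 and CDC25C had a median of -0.72, the kinases -0.67, the anaphase group -0.71 and the checkpoint genes -0.36. In the chromosome group the values ran from -0.58 for the kinesin KIF20A to 0.30 for MKI67. The kinesins KIF23 and KIF11 had -0.34 and 0.073, the kinetochore genes CENPE and CENPF 0.070 and -0.030, and BIRC5, the survivin gene, -0.25 (SE 0.18). TOP2A encodes the topoisomerase that untangles sister chromosomes. TOP2A signals were 11.64, 12.001 and 12.31 in vehicle, 12.03, 11.78 and 11.71 under PLX4720, 10.80, 12.34 and 12.31 under bevacizumab and 12.06 and 11.80 under COMBO. The lowest array was bevacizumab 1, and the arms otherwise overlapped (-0.15 ± 0.38 under PLX4720). MKI67 encodes Ki-67, the usual stain for cells in cycle. MKI67 signals were 5.94, 6.59 and 7.30 in vehicle, 6.84, 6.59 and 7.31 under PLX4720, 5.27, 6.83 and 6.96 under bevacizumab and 6.55 and 6.77 under COMBO. Its probe was dim, the vehicle arrays alone ran from 5.94 to 7.30, and the gene was detected on 2 of 3 bevacizumab arrays. The change of MKI67 under PLX4720 was 0.30 ± 0.46 (adjusted p = 0.810 in limma), with a 95% interval from -0.71 to 1.31.

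**Figure D3:**
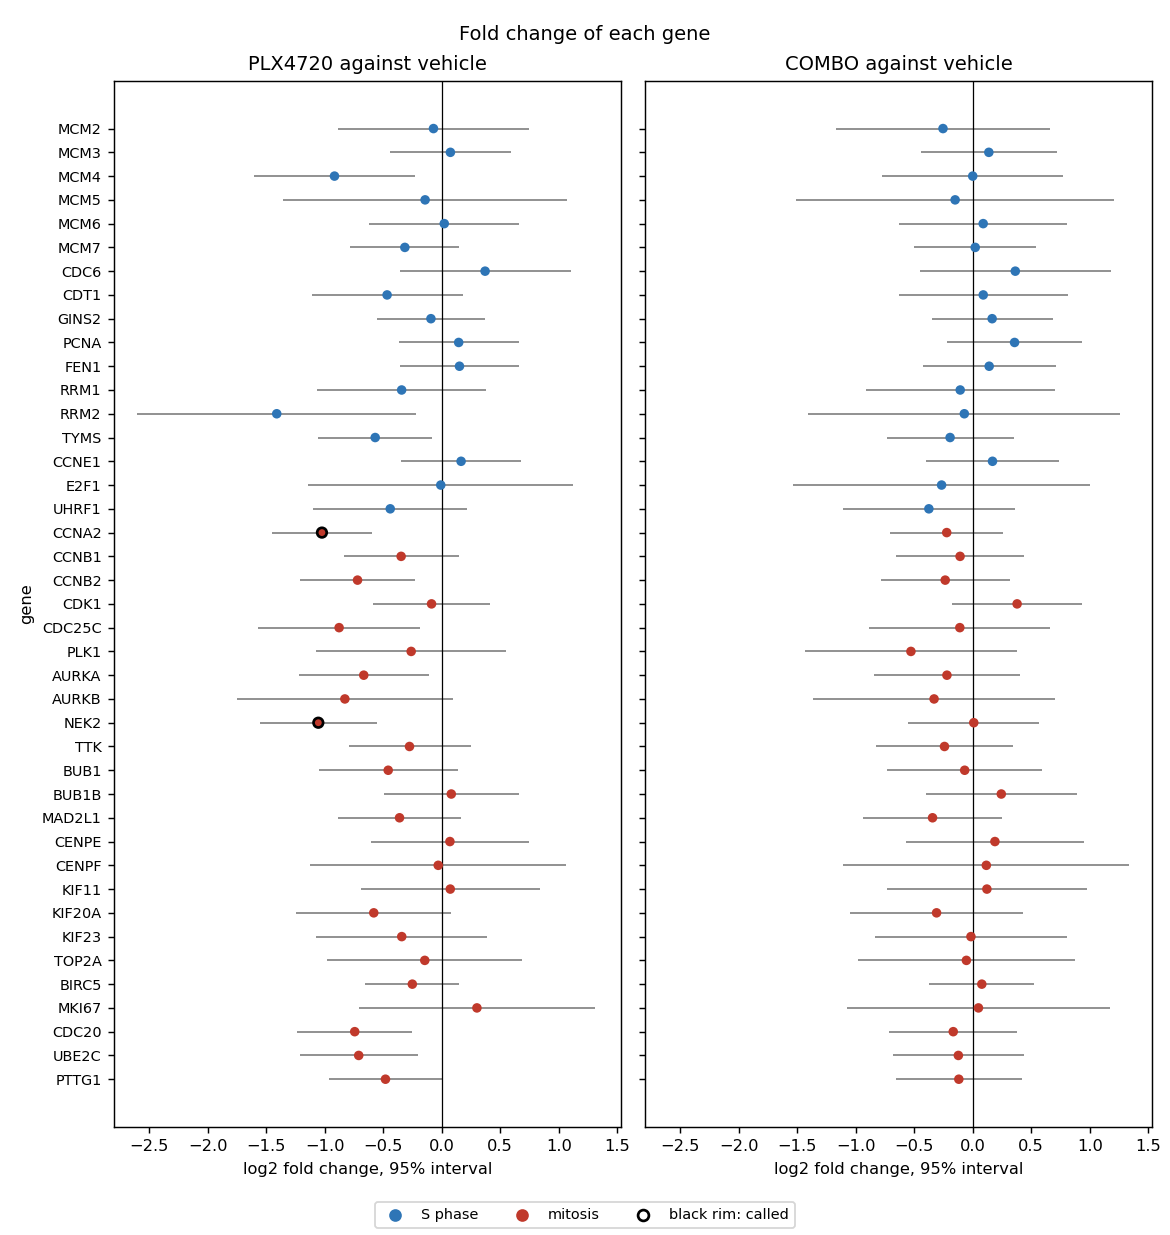
Log2 fold change (horizontal axis) with its 95% interval for each of 41 genes (vertical axis) under PLX4720 and under COMBO, blue for S phase, red for mitosis, black rims for called genes. Only CCNA2 and NEK2 carry a rim, both under PLX4720, and all COMBO intervals include 0.

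S phase genes were more mixed. The 6 MCM genes encode the replicative helicase, and their log2 fold changes under PLX4720 ran from -0.92 (MCM4) to 0.074 (MCM3), with a median of -0.11 and values of 0.021 for MCM6 and -0.32 for MCM7. MCM2 signals were 11.09, 11.17 and 11.19 in vehicle, 10.52, 10.61 and 12.12 under PLX4720, 11.65, 11.08 and 11.23 under bevacizumab and 10.86 and 10.93 under COMBO. The lowest arrays and the highest array of this gene were all PLX4720 arrays, and its mean change was -0.071 ± 0.37. MCM5 split in the same way, at 9.29 and 10.07 on PLX4720 1 and 2 and 12.01 on PLX4720 3, against 10.48 to 10.66 in vehicle. MCM4, at -0.92 ± 0.31, was below vehicle on PLX4720 1 and 3 (10.82 and 11.06 against 12.09 to 12.36), and on PLX4720 2, at 12.09, it lay at the level of the lowest vehicle array. Its adjusted p was 0.178.

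CDC6 and CDT1 load the helicase at origins, and GINS2 belongs to the complex that activates it. Their values under PLX4720 were 0.37 ± 0.33, -0.47 ± 0.29 and -0.093 ± 0.21. The CDC6 probe was detected on 7 of 11 arrays, 1 of them a vehicle array. PCNA encodes the clamp that holds polymerases on DNA. PCNA signals were 11.87, 11.16 and 11.51 in vehicle, 11.81, 11.68 and 11.48 under PLX4720, 11.72, 11.72 and 12.004 under bevacizumab and 12.02 and 11.71 under COMBO. Vehicle spanned the PLX4720 arrays (0.14 ± 0.23). FEN1, the nuclease that trims Okazaki fragments, gave 0.15 ± 0.23. A second, dimmer FEN1 probe, detected on all 11 arrays, had the opposite sign in the fit of single probes (-0.61 ± 0.26, adjusted p = 0.268 in limma).

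Enzymes of nucleotide supply came next. RRM2, the regulated subunit of ribonucleotide reductase, had the lowest S phase log2 fold change, with signals of 9.88, 10.19 and 10.31 in vehicle, 9.03, 9.88 and 7.24 under PLX4720, 8.94, 9.92 and 9.90 under bevacizumab and 10.14 and 9.97 under COMBO. PLX4720 3 was the lowest of the 11 arrays by far, PLX4720 1 was below vehicle and PLX4720 2 only just below its lowest array. The change of -1.41 ± 0.54 had an adjusted p of 0.234. TYMS, which makes thymidylate, was at 12.20, 12.12 and 12.22 under PLX4720 and at 12.46, 12.80 and 12.97 in vehicle, with the 3 PLX4720 arrays close together (-0.57 ± 0.22, adjusted p = 0.238). RRM1, the other subunit, had -0.34 ± 0.33.

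The G1/S regulators were the cyclin E gene CCNE1, which drives S phase entry with CDK2, the factor E2F1, and UHRF1, which keeps DNA methylation through replication. CCNE1 signals were 9.27, 9.57 and 9.12 in vehicle, 9.73, 9.20 and 9.52 under PLX4720, 9.72, 9.22 and 9.31 under bevacizumab and 9.43 and 9.55 under COMBO. The arms overlapped, and the change under PLX4720 was 0.17 ± 0.23. E2F1 signals were 7.53, 7.20 and 7.16 in vehicle, 6.35, 7.58 and 7.94 under PLX4720, 8.05, 5.996 and 7.60 under bevacizumab and 7.25 and 6.80 under COMBO. The extremes of all 11 arrays lay within the bevacizumab arm, and the PLX4720 arrays ran from 6.35 to 7.94. The mean change under PLX4720 was -0.0085 ± 0.51, with a 95% interval from -1.14 to 1.12. UHRF1 had -0.44 ± 0.30.

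**Figure D4:**
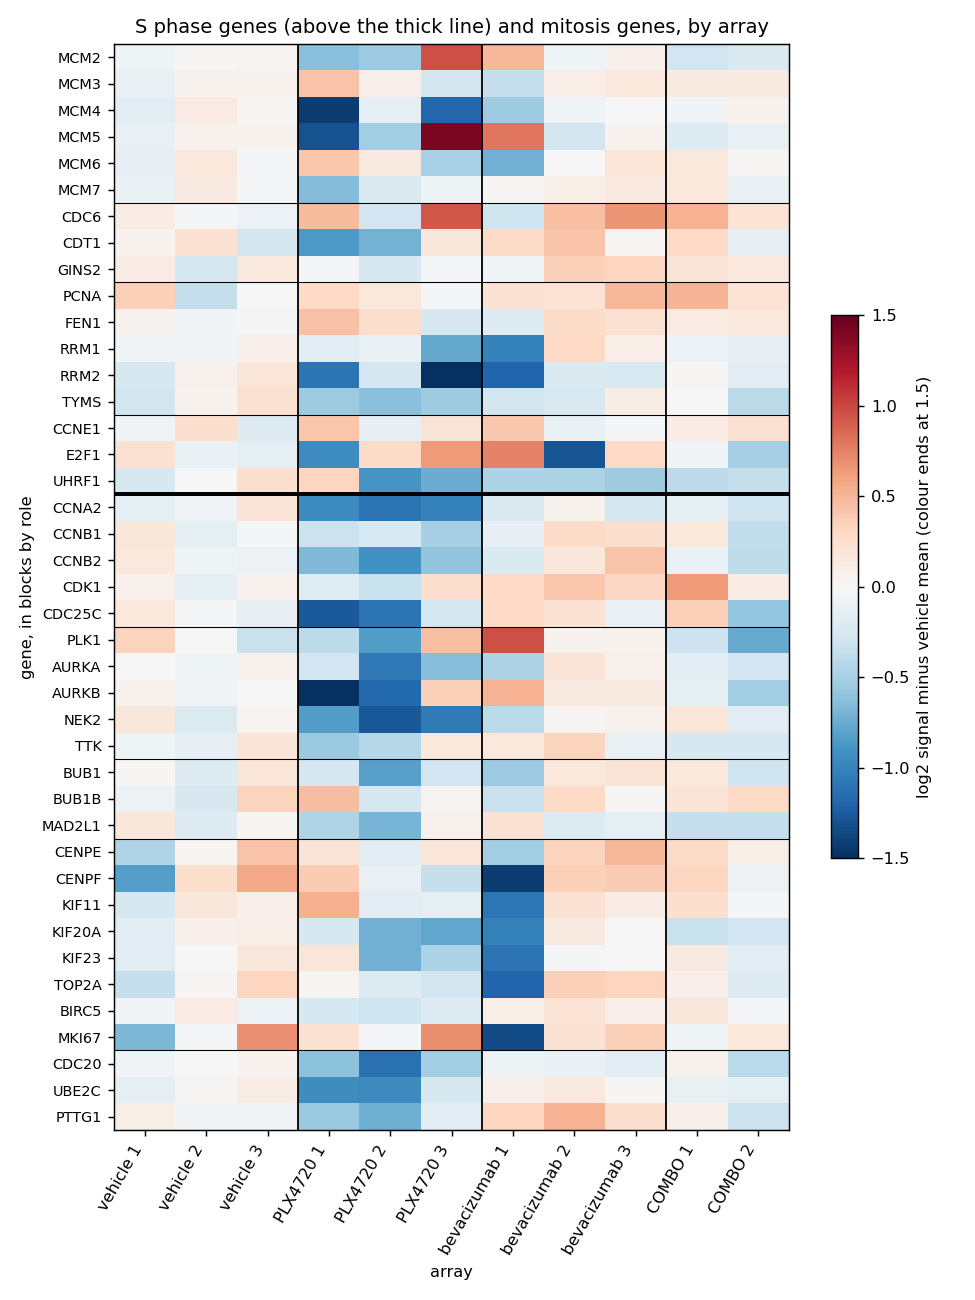
Log2 signal minus the vehicle mean (colour) for 41 genes (vertical axis) on 11 arrays (horizontal axis), S phase genes above the thick line, in blocks by role. CCNA2 and NEK2 are blue on all 3 PLX4720 arrays, while MCM2 and MCM5 turn from blue on PLX4720 1 and 2 to red on PLX4720 3.

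The classes were then set side by side, as medians over genes and without a test, since the members were listed with results of these arrays known. Under PLX4720 the median log2 fold change was -0.35 for mitosis genes and -0.093 for S phase genes, beside 0.055 for all genes tested. Values were below 0 for 20 of 24 mitosis genes and 11 of 17 S phase genes. Every PLX4720 array was below every vehicle array for 12 mitosis and 3 S phase genes (9.03% of all genes), and above for 0 and 0 (11.1% of all genes). The 3 S phase genes were RRM1, RRM2 and TYMS.

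Per array, the mitosis median relative to the vehicle mean was -0.30, -0.72 and -0.25 under PLX4720, -0.22, 0.20 and 0.073 under bevacizumab and 0.079 and -0.26 under COMBO. Vehicle arrays lay between -0.040 and 0.070. The S phase median was -0.16, -0.22 and -0.080 under PLX4720, -0.19, -0.0017 and 0.11 under bevacizumab and 0.11 and -0.11 under COMBO, with vehicle between -0.059 and 0.057. Mitosis genes lay below S phase genes by 0.15, 0.50 and 0.17 on the PLX4720 arrays, and by 0.15 on COMBO 2, which is as much as on PLX4720 1. All 24 mitosis genes were below the vehicle mean on PLX4720 2, which also held the highest median of 20 RNA handling stress genes, 0.64 above the vehicle mean against -0.38 and -0.39 on the other PLX4720 arrays. Without PLX4720 2 the class medians were -0.25 and -0.037. The part of RNA handling in the result was not tested.

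**Figure D5:**
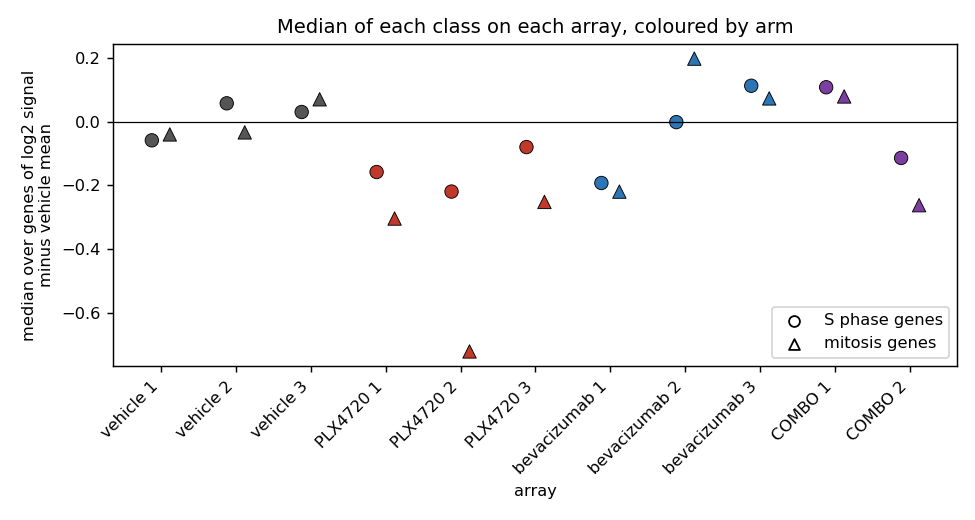
Median log2 signal minus the vehicle mean (vertical axis) over 17 S phase genes (circles) and 24 mitosis genes (triangles) on each array (horizontal axis), coloured by arm. The lowest triangle is PLX4720 2 at -0.72, and COMBO 2 and bevacizumab 1 lie near PLX4720 3.

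PLX4720 3 and bevacizumab 1 were not the only arrays on which the calls depended. Over all genes, 342 were called under PLX4720 against vehicle with all arrays. Without PLX4720 3 there were 724, without PLX4720 2 851, without PLX4720 1 131 and without bevacizumab 1 352. PLX4720 3 was above the vehicle mean by 1.41 for MCM5, 0.97 for MCM2, 0.64 for E2F1, 0.46 for PLK1 and 0.36 for AURKB, and its difference from that mean was -2.89 for RRM2, -0.79 for KIF20A and -0.77 for RRM1. Bevacizumab 1 showed the same signs for these 8 genes, which are not all the genes that were far from vehicle on PLX4720 3. The signs were opposite for CDC6 (0.93 on PLX4720 3 and -0.29 on bevacizumab 1) and MKI67 (0.69 and -1.34). With PLX4720 3 and bevacizumab 1 left out, the calls under PLX4720 rose to 7 mitosis genes, with 0 of S phase, against 3.08% of all genes called lower. These were CCNA2, NEK2, CCNB2, CDC20, CDC25C, AURKB and UBE2C, the last at -0.93 ± 0.16 (adjusted p = 0.0155 in limma). AURKB then fell by 1.40 ± 0.21 (adjusted p = 0.00883 in limma). Leaving out PLX4720 3 alone called CCNA2, NEK2, CDC25C, AURKB and UBE2C (1.75% of all genes lower). Leaving out PLX4720 2 alone instead called CCNA2 with the S phase genes MCM4 and RRM2 (2.63% lower), so the class that held the calls changed with the array left out. In both cases the other 2 arrays carried the arm.

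Probes of 1 gene did not always move together. Of the 41 genes, 18 had more than 1 detected probe, and all probes were lower under PLX4720 in 11 of them, higher in 2 and mixed in 5. The probes of MCM7, UHRF1, PCNA and CCNE1 differed by over 1 log2 unit. In a fit of 20638 single probes, 1.17% were called lower under PLX4720, and 3 of 61 cell cycle probes were among them, those of CCNA2 and NEK2 described above and a second, dimmer probe of UHRF1 (ILMN_2401352). Signals of that UHRF1 probe were 8.26, 8.11 and 8.38 in vehicle, 4.88, 6.93 and 4.997 under PLX4720, 7.91, 7.62 and 7.22 under bevacizumab and 7.93 and 8.15 under COMBO. It was detected on 1 of 3 PLX4720 arrays and on all vehicle arrays, so its change of -2.65 ± 0.46 (adjusted p = 0.0171 in limma) rests on 2 PLX4720 arrays where it was not detected and its size is not fixed by these values.

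A second MCM7 probe (ILMN_1704702) read 10.37, 10.80 and 10.18 in vehicle, 4.76, 9.56 and 6.75 under PLX4720, 10.67, 10.74 and 9.94 under bevacizumab and 10.46 and 10.50 under COMBO. It was lowest on PLX4720 1 and 3 and nearer to vehicle on PLX4720 2, while the brighter MCM7 probe had its lowest signal at 13.19, on PLX4720 1, over all arrays. The second PCNA probe was at 5.72 on PLX4720 1 and between 7.90 and 8.83 on every other array. Both this probe and the second MCM7 probe were detected on 2 of 3 PLX4720 arrays and on all arrays of the other arms. The size of their changes is therefore not fixed by these values. With the mean of all detected probes in place of the brightest, the class medians under PLX4720 were -0.34 for S phase and -0.44 for mitosis genes, so the S phase median moved by more than that of mitosis. Which transcripts each probe reads was not examined.

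Bevacizumab alone left the cell cycle genes without a call. It called 0% of all genes, and at an unadjusted p below 0.05 it had 0 of 41 cell cycle genes against 2.37% of all. The class medians were 0.083 for S phase and -0.025 for mitosis genes. Every bevacizumab array was below every vehicle array for UHRF1 and CDC20 (6.03% of all genes), with log2 fold changes of -0.49 ± 0.30 and -0.11 ± 0.22. The reverse, every bevacizumab array above every vehicle array, held for CDK1, PTTG1 and AURKB, and its share over all genes was not counted. Values ranged from -0.54 for RRM2 to 0.37 for PTTG1.

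COMBO against vehicle called 0.175% of all genes and no cell cycle gene, and 0 of 41 reached an unadjusted p below 0.05, against 5.23% of all genes. Medians were 0.021 for S phase and -0.11 for mitosis genes. Both COMBO arrays lay below all vehicle arrays for 7 mitosis and 3 S phase genes, with 18.8% of all genes doing so. Among these were CCNA2, CCNB2 and AURKA, for which the COMBO arrays also lay above all PLX4720 arrays.

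Set directly against PLX4720, COMBO called 0.00672% of all genes, 1 gene, and none of the cycle. At an unadjusted p below 0.05, 4 mitosis and 2 S phase genes were higher under COMBO (3.06% of all genes). These were NEK2 (1.06 ± 0.25, adjusted p = 0.506), CCNA2 (0.80 ± 0.22, adjusted p = 0.595), CDC20, UBE2C, MCM4 and RRM2, with limma. The second NEK2 probe gave a smaller difference, 0.61 ± 0.35. Both COMBO arrays were above all PLX4720 arrays for 7 mitosis and 4 S phase genes (8.11% of all genes). The test of non-additivity, COMBO minus both single drugs plus vehicle, called 0.00672% of all genes and 0 of 41 cell cycle genes. At an unadjusted p below 0.05, 2 genes of each class were above 0 in it (2.81% of all genes), NEK2, CCNA2, MCM4 and RRM2, all with adjusted p-values of 0.869. A difference of the PLX4720 effect with and without bevacizumab was therefore not shown for any of them.

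Averaged over the presence and absence of bevacizumab, PLX4720 called 3.35% of all genes and no cell cycle gene. At an unadjusted p below 0.05, 8 mitosis and 0 S phase genes were lower (6.33% of all genes), led by CCNA2 at -0.55 ± 0.15 (adjusted p = 0.0727 in limma). CCNB2 followed at -0.54 ± 0.17, PTTG1 at -0.48 ± 0.16 and NEK2 at -0.48 ± 0.17. The medians were -0.31 for mitosis and -0.12 for S phase genes. Averaged in the same way, bevacizumab called 0% of all genes, and 4 mitosis and 0 S phase genes were higher at an unadjusted p below 0.05 (1.57% of all genes). COMBO against bevacizumab called 0.363% of all genes and 0 cell cycle genes, with 0 of 41 at an unadjusted p below 0.05 (7.4% of all genes). These contrasts share arrays and are not separate evidence.

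Wider lists of the pathway were counted in the same fit, with no gene of them called in any contrast. Of all 14886 genes, 6663 had values below 0 under PLX4720, and at an unadjusted p below 0.05 1042 were lower and 1326 higher. Of 47 other replication genes, 24 had values below 0 under PLX4720, with a median of -0.013, and 3 were lower and 1 higher at an unadjusted p below 0.05. Of 58 other mitosis genes, 46 had values below 0, with a median of -0.28, and 11 were lower at an unadjusted p below 0.05. The 14 measured genes of the anaphase-promoting complex had a median of 0.15, and the 6 inhibitors of cyclin-dependent kinases one of -0.42, all 6 below 0.

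Regulators upstream of both classes were looked up by name. CCND1, the cyclin D1 gene that links ERK signalling to the cycle, read 13.09, 13.30 and 13.59 in vehicle, 13.62, 12.87 and 12.88 under PLX4720, 12.45, 13.34 and 13.11 under bevacizumab and 13.38 and 13.58 under COMBO. PLX4720 1 was the highest array, and the other PLX4720 arrays lay below vehicle (-0.20 ± 0.30). The inhibitor genes CDKN1A (p21) and CDKN1B (p27) had log2 fold changes of -0.0057 ± 0.30 and -0.47 ± 0.24 under PLX4720. FOXM1, the factor of the G2 wave, read 9.66, 9.62 and 9.68 in vehicle, 9.72, 8.62 and 10.83 under PLX4720, 10.17, 9.77 and 9.77 under bevacizumab and 9.41 and 9.39 under COMBO. It was lowest on PLX4720 2 and highest on PLX4720 3, with vehicle between them (0.066 ± 0.43). MYBL2, which works with it, had -0.16 ± 0.37 and was detected on 2 of 3 PLX4720 arrays. No call was made for these 5 genes.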

How the data were processed

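Human bead arrays (Illumina HumanHT-12 v4, biotin-labelled RNA) of 11 tumour samples were used, each arm with 3 biological replicates except COMBO with 2. The authors exported them with GenomeStudio 2011.01. The deposited table holds a linear intensity per probe, not normalized, and a detection p-value against negative control beads. A second deposited table holds intensity values after the authors' cubic spline normalization. Gene names came from the platform annotation, and probe coordinates are not given in the sources used here.

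Intensities were corrected with normexp (negative control moments from the detection p-values), offset by 16, put on the log2 scale and quantile normalized in limma 3.58.1 (R 4.3.3). Probes detected (p below 0.05) on at least 1 array were kept. Each gene was read from its probe of largest mean. A linear model of the 4 arms was fitted to all arrays with eBayes, and two-sided p-values were adjusted (Benjamini-Hochberg) over all 14886 genes. The log2 values were made from the deposited intensities. The test of the averaged PLX4720 effect was tried on simulated data with known changes and the same spread in every arm. The real arms differed in spread, so this trial does not check the calls under PLX4720 against vehicle. The members, the gene lists and the promoters printed were chosen with earlier results of these data known. Named with all values were called members, MKI67, PCNA, CCNA2, CCNB1, CDK1, CCNE1, E2F1, MCM2, TOP2A and NEK2, and the smallest p-values of the averaged PLX4720 effect up to 14 genes. RRM2 and the second probes of UHRF1, MCM7, FEN1 and UBE2C were added after their values were seen. Same-numbered arrays were not paired by any label. Promoters were RefSeq's. Figures used matplotlib 3.10.9 in Python 3.11.15. The number of arrays limits the precision. The p-values rest on the spread between these samples, pooled over the 4 arms. The median SD over all genes ran from 0.16 under COMBO to 0.44 under PLX4720.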

Additional observations from a re-analysis of the deposited data

How the results depend on the processing

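Under PLX4720 against vehicle CCNA2 passed in 13 of 23 alternative fits (log2 fold change -1.09 to -0.85, adjusted p 0.0107 to 0.147 in limma) and NEK2 in 9 of 23 (-1.16 to -0.82, adjusted p 0.0247 to 0.173). The 2 calls became 0 with median scaling, with only the arms compared, with array weights and with a replicate block, and leaving out single arrays gave 0 to 5 calls (0 to 2 of S phase, 0 to 5 of mitosis). It gave 0 calls without any 1 vehicle array, PLX4720 1 or either COMBO array, 1 without bevacizumab 2 or 3, 3 without PLX4720 2 and 5 without PLX4720 3. The mean of a gene's probes called 1 S phase gene and 1 mitosis gene, UHRF1 and CCNA2. Leaving out PLX4720 3 and bevacizumab 1, chosen after seeing the data, gave 7 calls. Where COMBO kept 1 array, that array was assumed to vary like the others. The replicate block gave CCNA2 an adjusted p of 0.067 and NEK2 one of 0.079. Deviations from the arm means correlated at -0.47 to 0.27 between same-numbered arrays of different arms (3 of 15 pairs over 0.1). Between arrays with different numbers they correlated at -0.48 to 0.63 (8 of 30 pairs over 0.1). The numbers were not treated as pairs because no label says that they mark any.

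For the PLX4720 effect averaged over bevacizumab, calls rose from 0 to 1 (CCNA2) with the authors' cubic spline values, offset 50, no background correction and no filter on dim probes, to 2 with array weights and to 3 without PLX4720 3 and bevacizumab 1; leaving out single arrays gave 0 to 2, the 2 without PLX4720 3. Calls over all genes rose as well, from 499 of 14886 to 998 with array weights, to 905 of 14789 without PLX4720 3 and to 1013 of 14698 without PLX4720 3 and bevacizumab 1, so these member counts are near the share of all genes. For COMBO against PLX4720 the methods' limits gave 1 and leaving out single arrays 0 to 1 (MCM4, without PLX4720 2), and for the interaction the methods' limits gave 1. The cause of these shifts was not tested.

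The mitosis median under PLX4720 was below 0 in all 23 alternatives (-0.51 to -0.20) and the S phase median in 22. The latter was 0.042 with median scaling, -0.34 with the mean of probes, -0.25 with array weights, -0.28 without PLX4720 3 and bevacizumab 1 and -0.29 to -0.037 without single arrays. Median scaling moved the median of all genes to 0.14 under PLX4720, -0.12 under bevacizumab, -0.11 under COMBO, -0.23 for COMBO against PLX4720, -0.18 for the averaged bevacizumab effect and -0.11 for the interaction. With it the S phase medians were -0.085 for bevacizumab, -0.15 for COMBO, -0.11 for COMBO against PLX4720, -0.12 for averaged bevacizumab and -0.070 for the interaction, and the mitosis medians 0.038 for COMBO against PLX4720 and -0.048 for averaged bevacizumab. With the mean of probes the S phase medians were -0.046 for bevacizumab, 0.26 for COMBO against PLX4720, -0.24 for averaged PLX4720 and 0.31 for the interaction. Array weights gave -0.081 for COMBO against bevacizumab, the replicate block 0.21 for COMBO against PLX4720, and leaving out PLX4720 3 and bevacizumab 1 gave 0.28 for COMBO against PLX4720 and 0.32 for the interaction. Without single arrays the S phase medians were -0.11 to 0.11 for COMBO, 0.064 to 0.27 for COMBO against PLX4720 and -0.071 to 0.096 for COMBO against bevacizumab.

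Of genes that were not called, the sign under PLX4720 turned for PCNA (-0.64) and CCNE1 (-0.39) with the mean of probes, for CDK1 (0.099), MCM2 (0.13) and TOP2A (0.028) with median scaling, for MCM2 (0.011) with cyclic loess, and for E2F1 with the authors' values (0.016), offset 50 (0.017) and no background correction (0.032). Without single arrays the values ran from -0.036 to 0.64 for MKI67, -0.032 to 0.32 for PCNA, -0.25 to 0.035 for CDK1, -0.33 to 0.45 for E2F1, -0.58 to 0.21 for MCM2 and -0.32 to 0.018 for TOP2A. A slide or scan batch as a block was not run because the tables name none.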
